A study of Cunninghamia lanceolata with 18 samples.

Results

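SAUR genes (small auxin up RNA) form a large plant family of short, mostly intron-free genes whose transcripts rise within minutes of an auxin signal and are turned over quickly. In Arabidopsis several SAUR proteins inhibit PP2C phosphatases of the D clade, which leaves the plasma membrane proton pump active, acidifies the cell wall and lets cells expand. Other members respond to light, brassinosteroid or developmental cues, so the family is known both as a readout of auxin and as an effector of growth.

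The 9 genes described here are those labelled SAUR24 (1 gene), SAUR50 (5 genes) and SAUR32 (3 genes) among the 43 auxin genes that the study selected for a difference between its clones, out of 46723 genes in the count table of Chinese fir (Cunninghamia lanceolata), a conifer grown for timber. The labels are the study's protein matches and not functional proof in this species. Libraries were made from 3 tissues, namely apical bud (AB), the upper part of the phloem beside it (UP) and lateral bud (LB), and from 2 clones, C1 with longer and C11 with shorter internodes, which gave 6 groups of 3 libraries and 18 libraries in all. Both clones are untreated genotypes of unstated relationship that grew in a field trial, so 2 clones stand for 2 genotypes and not for long and short internodes in general. All tissues were collected when lateral buds appeared, on a day after sprouting that differed with the clone, and clone and day cannot be told apart. Marker genes of bud and phloem could not be checked, because the genes outside the study's panels carry no names here. In bulk tissue, fewer cells of a type and less RNA per cell cannot be told apart either.

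The libraries held 24766529 to 32005160 counts. The C11 libraries were more scattered than the C1 libraries. The SD of log2(CPM + 1) within groups had a median over all genes of 0.49 in C11 and 0.24 in C1, where CPM is the count scaled to the library's total after TMM correction. Every SAUR homolog was low, at a mean of at most 16.1 CPM in any group, and gene lengths were not used, so levels are compared between libraries and not between genes. Values are given as counts in replicates 1, 2 and 3 and as CPM ± SD with n = 3 per group. A group with no count may still hold up to 3 counts by counting error alone, which corresponds to 0.0320 CPM in C1 LB and 0.0356 CPM in C11 LB.

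The gene labelled SAUR24, Cula0001196, belongs by name to the Arabidopsis group around SAUR19, whose members promote cell expansion. In C1 it had 95, 46 and 134 counts in AB, 98, 83 and 79 in UP and 10, 24 and 49 in LB. In C11 it had 1, 22 and 20 counts in AB, 6, 14 and 0 in UP and 32, 17 and 8 in LB. AB and UP of C1 stood above every other group, at 3.35 ± 1.89 and 2.75 ± 0.297 CPM, and they overlapped each other. Below them C1 LB (0.844 ± 0.527 CPM), C11 LB (0.699 ± 0.500), C11 AB (0.503 ± 0.402) and C11 UP (0.239 ± 0.243) each overlapped the next in order. The clones were thus apart in AB and UP, and their LB levels overlapped.

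The Arabidopsis namesake of the 5 genes labelled SAUR50 promotes the light-driven expansion of cotyledon cells. Of these 5 genes, 4 had their highest level in UP of C1, with means of at most 0.318 CPM in LB. Cula0007053 had 79, 43 and 164 counts in C1 UP against 2, 2 and 1 in C1 AB and 0, 0 and 1 in C1 LB. Its C11 libraries had 2, 14 and 23 counts in UP, 0, 5 and 1 in AB and 1, 0 and 4 in LB. Both clones therefore had their highest mean in UP, at 3.11 ± 2.21 CPM in C1 and 0.469 ± 0.384 CPM in C11, although the lowest C11 UP library lay within the range of the C11 buds.

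Cula0014695 was absent from the LB counts. It had 35, 35 and 71 counts in C1 UP, 1, 1 and 3 in C1 AB, and no count in any of the 6 LB libraries. C11 had 5, 4 and 0 counts in UP and 0, 9 and 1 in AB. Against the floor of 3 counts over the 3 libraries of a group, C1 UP (1.52 ± 0.774 CPM) was at least 46.5-fold higher than C1 LB. C11 UP (0.110 ± 0.0991 CPM) stood at 3.07 times the floor of C11 LB. Both figures take the UP counts as exact. In C11 this is no lower bound, since replicate 3 of UP had no count either and the UP and LB libraries overlapped. In C11 the UP and AB levels overlapped.

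Cula0029804 had 45, 43 and 94 counts in C1 UP, 4, 7 and 6 in C1 AB and 0, 0 and 5 in C1 LB. In C11 it showed no such peak, with 0, 10 and 9 counts in UP, 5, 3 and 15 in AB and 4, 3 and 20 in LB. Its 3 C11 means lay between 0.226 ± 0.196 CPM in UP and 0.318 ± 0.330 CPM in LB and overlapped, whereas C1 UP was at 1.96 ± 1.07 CPM.

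Cula0026368 was the most abundant of these 4 in C1 UP in CPM, a scale that does not correct for gene length, with 112, 98 and 201 counts there against 11, 52 and 19 in C1 AB and 2, 5 and 15 in C1 LB. C11 had 12, 32 and 17 counts in UP, 0, 13 and 1 in AB and 2, 2 and 18 in LB. The mean in UP was 4.43 ± 2.10 CPM in C1 and 0.731 ± 0.337 CPM in C11, and in each clone all 3 UP libraries lay above all 3 AB libraries. C1 AB (0.933 ± 0.662 CPM) and C11 UP overlapped.

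**Figure D1:**
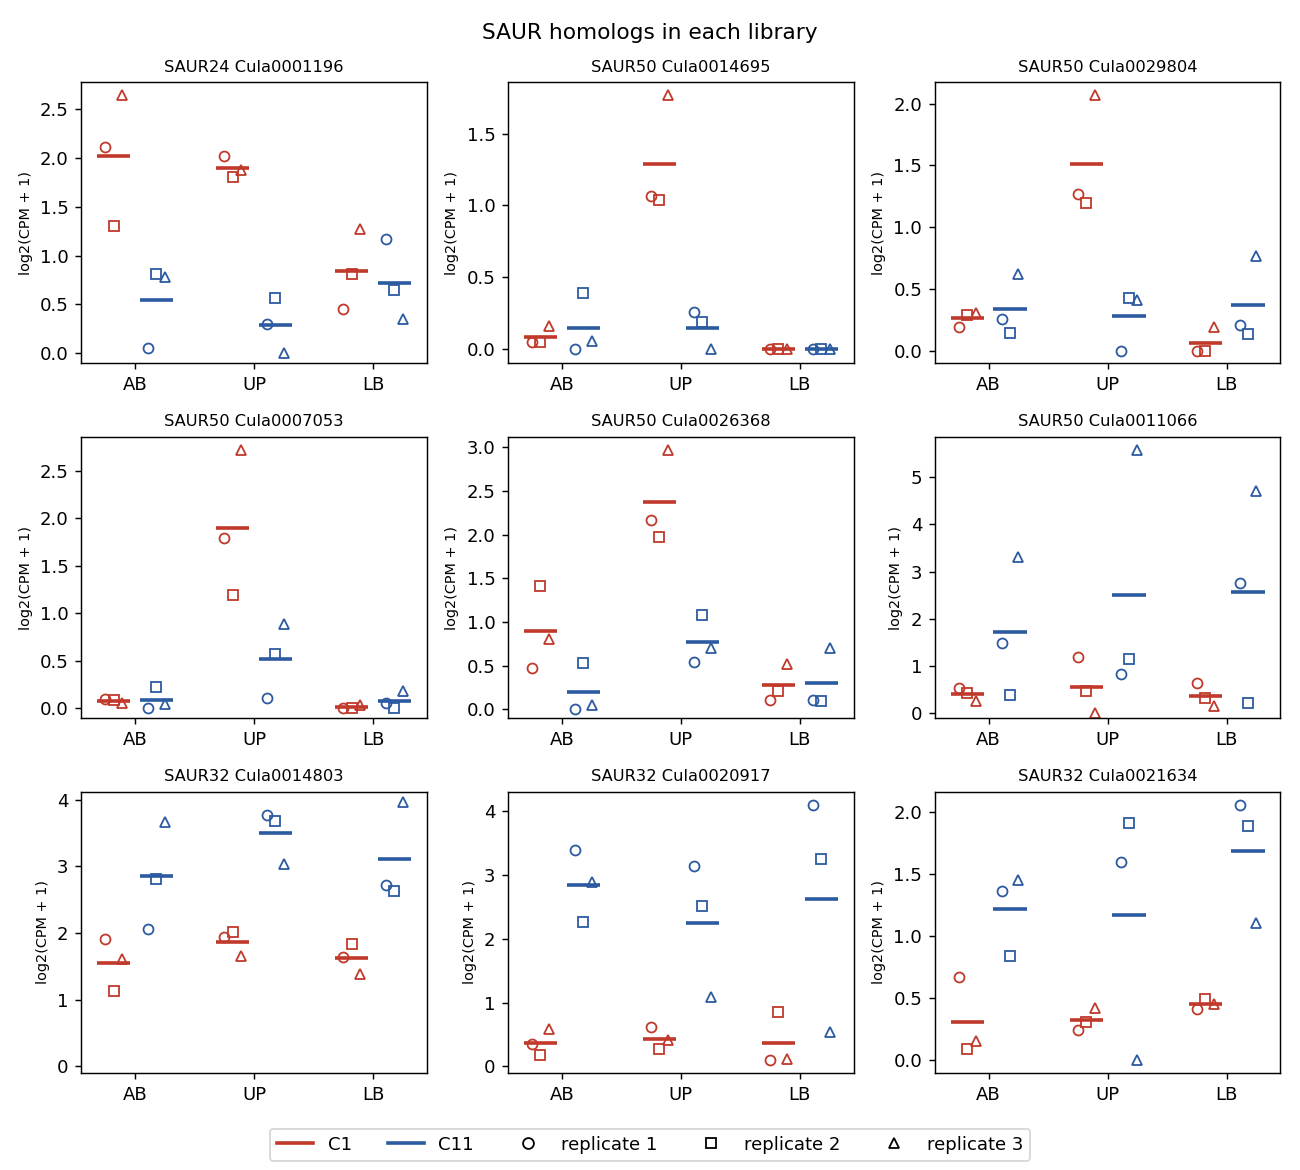
Level of each of the 9 SAUR homologs in every library, as log2(CPM + 1) on the vertical axis and tissue (AB, UP, LB) on the horizontal axis. Points are libraries (circle, square and triangle for replicates 1, 2 and 3), bars are means of 3, and C1 is red and C11 blue. Cula0014695, Cula0029804, Cula0007053 and Cula0026368 peak in C1 UP, the SAUR32 genes lie higher in C11, and Cula0011066 is highest in replicate 3 of C11 in all 3 tissues.

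The remaining SAUR50 homolog, Cula0011066, behaved differently and varied mainly between C11 libraries. It had 46, 9 and 248 counts in C11 AB, 20, 35 and 1262 in C11 UP and 147, 5 and 715 in C11 LB. C1 had 13, 11 and 5 counts in AB, 41, 13 and 0 in UP and 15, 8 and 4 in LB. In each tissue replicate 3 of C11 was the highest of the 6 libraries, at 8.35, 46.8 and 8.44 times the mean CPM of the other 2 C11 libraries in AB, UP and LB. Of all genes tested, 3.78% were likewise at least 2-fold above both other C11 libraries in replicate 3 of all 3 tissues, and 5.94% were at least 2-fold below. C1 and C11 overlapped in every tissue. The ratio of mean CPM of C1 to C11 in UP was 0.0347 with all libraries and 0.563 without replicate 3 of C11, a comparison chosen after these values were seen. The biological coefficient of variation of this gene was 1.29, higher than that of 93.4% of genes. The median over all genes was 0.459, and the other 8 homologs ran from 0.456 to 0.903.

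The 3 genes labelled SAUR32, named after an Arabidopsis gene that acts on apical hook maintenance and hypocotyl growth, had higher means in C11 in all tissues. Cula0014803 was present in every library. It had 79, 37 and 52 counts in AB, 90, 102 and 63 in UP and 57, 82 and 56 in LB of C1. Its C11 counts were 81, 175 and 329 in AB, 328, 340 and 196 in UP and 142, 155 and 420 in LB. The clones did not overlap in any tissue, with means of 2.00 to 2.67 CPM in C1 and 6.98 to 10.5 CPM in C11, and the tissues of a clone overlapped.

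Cula0020917 had 8, 4 and 13 counts in AB, 17, 7 and 10 in UP and 2, 26 and 3 in LB of C1, and 241, 110 and 181 in AB, 203, 136 and 31 in UP and 413, 256 and 13 in LB of C11. The clones were apart in AB (0.306 ± 0.192 against 6.57 ± 2.85 CPM) and UP (0.361 ± 0.163 against 4.55 ± 3.33 CPM). In LB they overlapped, since replicate 3 of C11 (0.454 CPM) fell below the highest C1 library (0.816 CPM), while the other 2 C11 libraries were at 16.2 and 8.54 CPM.

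Cula0021634 had 17, 2 and 3 counts in AB, 6, 8 and 10 in UP and 9, 13 and 13 in LB of C1, and 40, 23 and 49 in AB, 53, 80 and 0 in UP and 81, 81 and 33 in LB of C11. The clones were apart in AB (0.259 ± 0.292 against 1.37 ± 0.508 CPM) and LB (0.371 ± 0.0381 against 2.34 ± 1.06 CPM). In UP replicate 3 of C11 had no count and lay below all C1 libraries, so the ranges overlapped.

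The question of the tissue comparison was in which of the 3 tissues the homologs were expressed, over both clones. The homologs were chosen for differences between the clones, and the comparison of tissues uses the mean over the clones, but the same UP libraries enter both. All 9 passed the low count filter. Cula0014695 reached the filter level in no library outside C1 UP and Cula0007053 in 2, so these genes passed the filter only because C1 UP was high and had to differ between tissues in C1. The values of these genes, and counts over the list, are therefore a description, and the adjusted p of a call on them is not independent evidence of a peak in UP. A gene counted as called when it differed by 2-fold or more with a false discovery rate under 0.05 in edgeR's quasi-likelihood test over all 27174 genes.

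Between UP and AB, Cula0007053 was higher in UP by a log2 fold change of 4.15 ± 0.87 (SE, edgeR adjusted p = 0.0216), with a higher mean in both clones. It was the 1 of 9 homologs called, against 0.644% of all genes called higher and 1.98% called lower. Since it passed the filter only through C1 UP, this call and the shares beside it are a description. The log2 fold change was 5.64 ± 1.30 within C1 and 2.66 ± 1.18 within C11, and it was called within neither clone (edgeR adjusted p = 0.152 and 0.339). Without the filter the value over both clones was 4.16 (edgeR adjusted p = 0.0253). The call was lost when replicate 1 or 2 of C1 AB, replicate 1 or 3 of C11 AB or replicate 3 of C1 UP was left out, and the edgeR adjusted p ranged from 0.0138 to 0.0746 over the 18 such fits. Cula0014695 (2.24 ± 0.95), Cula0026368 (2.19 ± 0.79) and Cula0029804 (1.49 ± 0.86) did not pass, with edgeR adjusted p of 0.256, 0.159 and 0.399. For Cula0026368 the estimates within C1 and C11 were alike, at 2.24 ± 1.09 and 2.14 ± 1.14. For Cula0029804 they were 3.27 ± 1.27 and -0.29 ± 1.20, and for Cula0014695 4.56 ± 1.42 and -0.08 ± 1.29. Cula0001196, Cula0011066 and the SAUR32 genes lay between -0.67 and 1.43 and did not pass.

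Between UP and LB, 2 of 9 homologs were called, both higher in UP, against 1.1% of all genes called higher and 2.4% called lower. Both passed the filter only through C1 UP, so these calls and the shares beside them are a description. Cula0007053 was higher by 5.31 ± 0.95 on the log2 scale (edgeR adjusted p = 0.0083), and it was called in all 18 fits that left out 1 library, at 4.95 to 6.19. Each of these fits kept C1 UP libraries, so they give Cula0007053 no independent support. Its estimates were 7.73 ± 1.49 within C1 and 2.89 ± 1.20 within C11, and again neither was called (edgeR adjusted p = 0.0524 and 0.378). Cula0014695 was also called (edgeR adjusted p = 0.0217), but its fitted log2 fold change of 6.60 ± 1.30 rests on an LB group without counts and is no bound. The bound in C1 is given with its counts. It was called in 14 of the 18 fits and lost without replicate 2 or 3 of C1 LB or of C1 UP, with edgeR adjusted p of 0.0131 to 0.0608. Cula0026368 was at 2.88 ± 0.81 (edgeR adjusted p = 0.0626) and Cula0029804 at 2.34 ± 0.90 (edgeR adjusted p = 0.172). The other 5 homologs lay between -0.54 and 0.76.

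Counts of calls moved with the tool. With DESeq2, 2 homologs were called higher in UP than in AB, where 2.58% of all genes were, and 4 higher in UP than in LB, where 2.86% were. With the replicate number as a block in edgeR, 1 and 3 were called, where 1.53% and 2.08% of all genes were.

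Between LB and AB no homolog was called by edgeR or by DESeq2, and 0% of all genes were called by edgeR and 0.0595% by DESeq2. At an unadjusted p under 0.05 in edgeR there was 1 homolog, Cula0014695. No share of all genes at that threshold is set beside this count. Cula0014695 had no count in LB, 5 counts over the C1 AB libraries and 10 over the C11 AB libraries. The median log2 fold change of the 9 homologs was 1.43 for UP against AB, 0.76 for UP against LB and -0.70 for LB against AB, where the medians of all genes were 0.02, -0.0016 and -0.0044. The medians for UP against AB and UP against LB are the values of Cula0011066 itself. When 1 library was left out, the values of Cula0011066 ran from -0.57 to 2.33 and from -1.25 to 1.66. The medians themselves were not recomputed in those fits. A shift of the family to UP was not tested, and none is read from the medians.

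**Figure D2:**
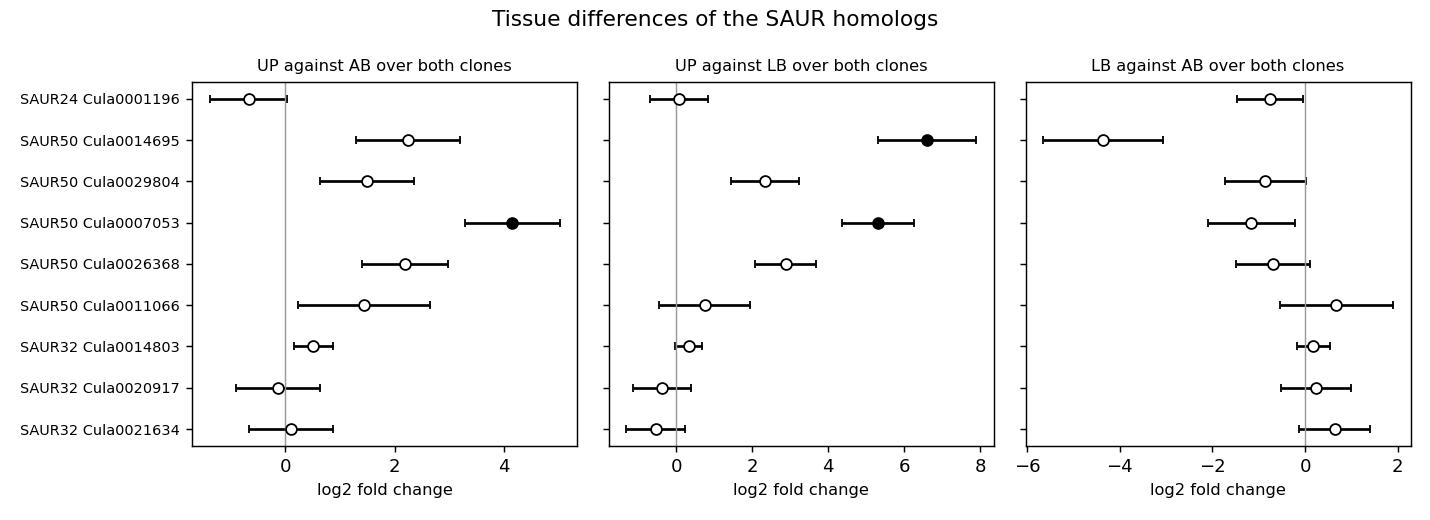
Log2 fold change between tissues over both clones for the 9 SAUR homologs, with SE as bars, from the edgeR fit of 18 libraries. Filled points were called. In UP against AB the called gene is Cula0007053 at 4.15, and in UP against LB the called genes are Cula0014695 and Cula0007053.

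Library by library, UP stood apart from the buds mostly in C1. The difference between the clones in UP had chosen the genes, so what follows on the clones is a description. The 3 C1 UP libraries lay above the 3 C1 AB libraries for 4 of 9 homologs, where 11.8% of all genes did so, and above the 3 C1 LB libraries for 5 of 9, where 16% did so. These were Cula0014695, Cula0029804, Cula0007053 and Cula0026368, joined by Cula0001196 in the comparison with LB. In C11 the UP libraries lay above the AB libraries for Cula0026368 alone, where 5.32% of all genes did so, and above the LB libraries for 0 of 9, where 4.8% did so. The C1 UP libraries also chose these genes, so the counts in C1 are a description. How much more C1 and C11 differed in UP than in a bud rests on the same UP difference that chose the genes. Its values are therefore given without a test. For Cula0014695 no value is given between UP and LB, since it had no count in LB. The log2 fold change of C1 against C11 was larger in UP than in LB by 5.66 ± 1.82 for Cula0029804 and 4.84 ± 1.85 for Cula0007053. It was larger by 3.22 ± 1.45 for Cula0001196 and 2.80 ± 1.56 for Cula0026368. For the SAUR32 gene Cula0014803 this difference was 0.04 ± 0.70. Between UP and AB it was 4.64 ± 1.90 for Cula0014695, 3.56 ± 1.73 for Cula0029804, 2.98 ± 1.69 for Cula0007053, 0.78 ± 1.40 for Cula0001196 and 0.10 ± 2.00 for Cula0026368.

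The difference between the clones chose the homologs, and its values are given as a description without a test. The study marked 14 pairs of gene and tissue. In UP the log2 fold change of C1 against C11 was 3.70 ± 1.02 for Cula0014695, 3.47 ± 1.08 for Cula0001196, 3.07 ± 1.09 for Cula0029804, 2.69 ± 0.94 for Cula0007053 and 2.56 ± 0.56 for Cula0026368. On the other side it was -4.86 ± 2.11 for Cula0011066, -3.68 ± 0.84 for Cula0020917 and -2.01 ± 0.36 for Cula0014803. The value of Cula0011066 ran from -6.32 to -0.84 when 1 library was left out, with the smallest size without replicate 3 of C11. In AB the marked genes were Cula0001196 (2.71 ± 0.97), Cula0020917 (-4.41 ± 0.67) and Cula0014803 (-1.81 ± 0.60), and in LB they were Cula0020917 (-4.69 ± 1.53), Cula0021634 (-2.65 ± 0.53) and Cula0014803 (-2.01 ± 0.52). The smallest marked difference was thus that of Cula0014803 in AB. Unmarked pairs were not always smaller, since Cula0011066 had -3.43 ± 1.19 in AB and -5.06 ± 1.65 in LB, Cula0021634 had -2.38 ± 0.88 in AB and -2.66 ± 1.44 in UP, and Cula0026368 had 2.48 ± 1.27 in AB. Cula0001196 in LB was at 0.26 ± 0.75, and from -0.32 to 0.96 when 1 library was left out.

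Between the clones the number of calls again depended on the tool. The choice of the homologs fixed these counts in part, and nothing is read from them. EdgeR called 1 of 6 homologs tested in AB (Cula0020917), 1 of 9 in UP (Cula0014803) and 0 of 5 in LB, where it called 4.55%, 3.94% and 4.27% of all genes. At an unadjusted p under 0.05 in edgeR there were 5 of 6 homologs in AB, 7 of 9 in UP and 4 of 5 in LB. No share of all genes at that threshold is set beside these counts. DESeq2, the tool of the study, called 4, 7 and 4 homologs, where it called 11.5%, 13.5% and 14.1% of all genes. All 3 libraries of a clone lay on 1 side of the other clone for 4 of 9 homologs in AB, 7 in UP and 2 in LB, against 25.4%, 29.9% and 28.2% of all genes.

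**Figure D3:**
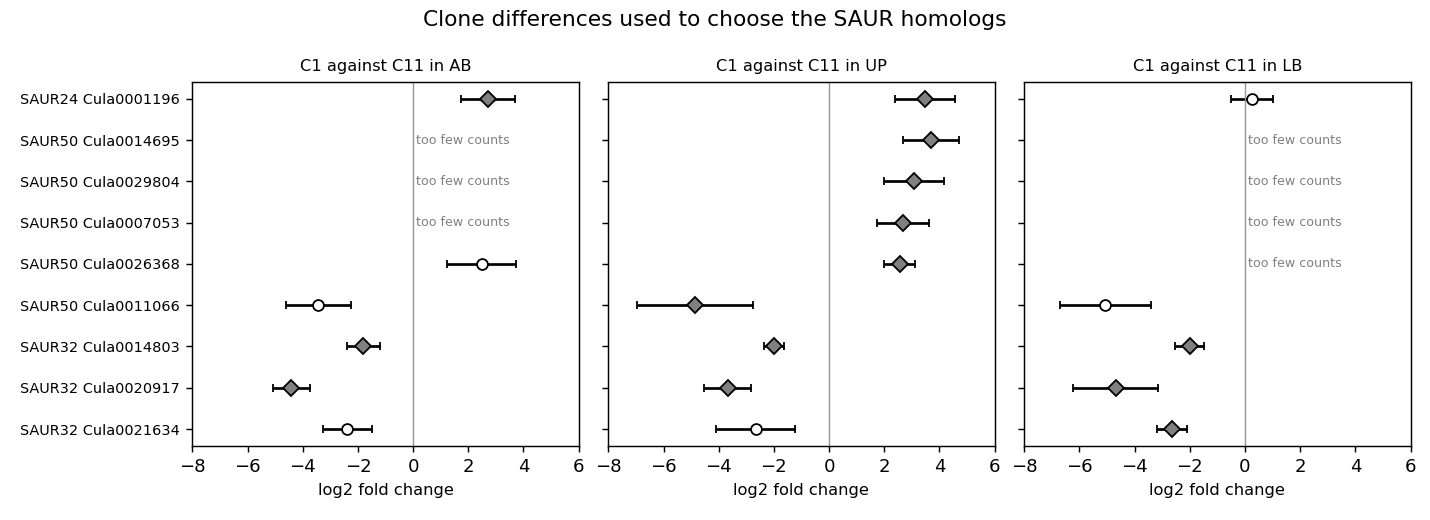
Log2 fold change of C1 against C11 in AB, UP and LB for each SAUR homolog, with SE as bars, from edgeR fits of 6 libraries per tissue. Grey diamonds are the 14 pairs the study marked, open circles are unmarked pairs, and genes with too few counts have no point. The SAUR24 gene and 4 SAUR50 genes lie to the right in UP, and Cula0011066 and the SAUR32 genes lie to the left in all tissues.

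The homologs were put in 2 sets by the direction of the clone difference in UP, which had chosen them. The sets were not found from the correlations. The first set was the SAUR24 gene and the 4 SAUR50 genes with a peak in C1 UP. Among these, Pearson's r of log2(CPM + 1) over the 18 libraries ran from 0.37 to 0.93 with a median of 0.88. The 6 pairs of SAUR50 genes held the high values, and the pairs with Cula0001196 ran up to 0.53. Over the 9 C1 libraries the 10 pairs had a median of 0.93, with 0.99 for Cula0014695 and Cula0007053. Over the 9 C11 libraries the median was 0.12 and the range -0.43 to 0.74, at counts close to 0. After the group means were taken off, the median was 0.52, and it moved to 0.31 and 0.78 with pseudocounts of 0.1 and 5 in place of 1. Among Cula0011066 and the SAUR32 genes the range over 18 libraries was 0.12 to 0.87, with the highest value for Cula0020917 and Cula0021634. After the group means were taken off, these 4 genes had a median of -0.12 and a range of -0.65 to 0.74. As a set they did not go together within groups. The highest value was again that of Cula0020917 and Cula0021634, and Cula0011066 ran opposite to both (-0.59 and -0.65). Cula0020917 and Cula0021634 also went together over the 9 C11 libraries (0.73), where Cula0011066 ran opposite to both (-0.62 and -0.58). Over the 9 C1 libraries Cula0020917 and Cula0021634 did not go together (0.03). Libraries of a group share clone, tissue and day, so the correlations describe these libraries.

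**Figure D4:**
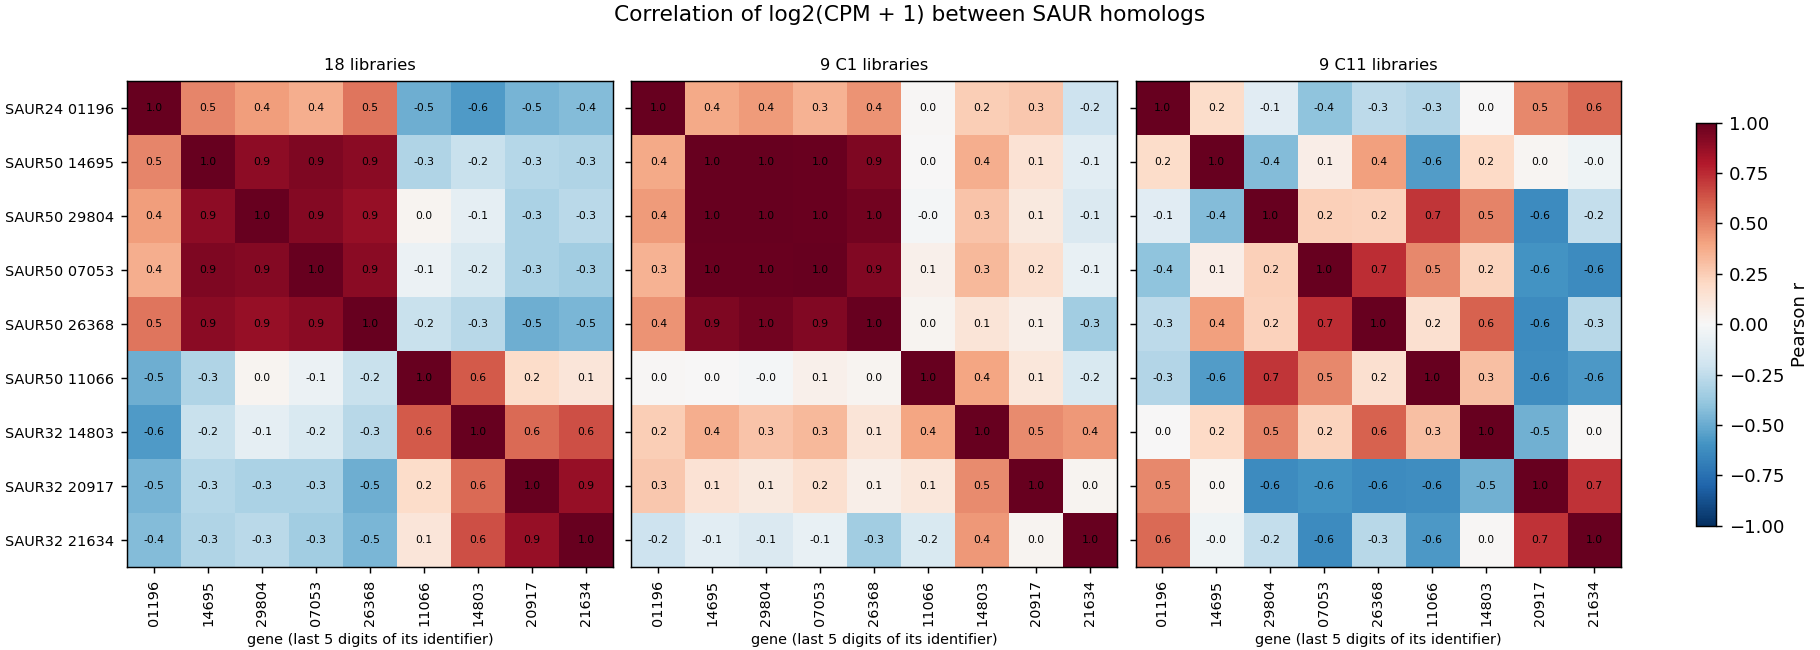
Pearson's r of log2(CPM + 1) between the SAUR homologs over the 18 libraries, the 9 C1 libraries and the 9 C11 libraries. Genes are named by the last digits of their identifiers, and red is positive and blue negative. The block of 4 SAUR50 genes is strong over C1 and over all libraries and weak over C11.

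The genes most like each homolog were taken as the 2 with the highest r over the 18 libraries. Cula0017876 was among them for all 4 SAUR50 genes with a peak in C1 UP. Its r was 0.96 for Cula0014695, 0.94 for Cula0007053, 0.92 for Cula0026368 and 0.89 for Cula0029804. Cula0026809 was the nearest gene to Cula0007053 (0.97) and Cula0029804 (0.91), Cula0023772 the second nearest to Cula0014695 (0.95) and NewGene_161 to Cula0026368 (0.91). The SAUR24 gene Cula0001196 was nearest to Cula0016398 (0.90) and Cula0011589 (0.88). Cula0011066 was nearest to Cula0024646 and Cula0003166 (both 0.98). Among the SAUR32 genes, Cula0014803 was nearest to Cula0006139 (0.94) and NewGene_392 (0.93), Cula0020917 to Cula0013787 (0.97) and Cula0012372 (0.97), and Cula0021634 to Cula0023502 (0.96) and NewGene_6655 (0.95). These genes are given by identifier alone. Some lay near the floor, with at most 24 counts in any library for Cula0024646, 25 for Cula0016398, 27 for Cula0023772 and 22 for NewGene_392. Their r rests on few counts. Cula0017876, Cula0026809 and NewGene_161 reached at most 84, 74 and 79 counts in any library. In C1 UP their means were 1.96, 1.58 and 1.37 CPM, and in the other groups at most 0.161, 0.105 and 0.243 CPM. Their r with the SAUR50 genes thus rests largely on C1 UP, the group whose difference chose those genes. Others were higher, with up to 3395 counts for Cula0003166.

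The other 34 auxin genes of the same panel, also chosen by the study on these libraries, cover auxin synthesis, inactivation, transport and signalling. Between UP and AB, 0 were called higher and 3 lower, and between UP and LB, 2 were called higher and 3 lower. Both that rose from LB to UP were signalling genes of the Aux/IAA type, a family of short-lived repressors that auxin itself induces. Cula0005774, labelled AUX28, had 2227, 2229 and 2052 counts in C1 UP against 37, 46 and 17 in C1 LB, and 774, 1021 and 293 in C11 UP against 70, 50 and 201 in C11 LB. From LB to UP it rose by 4.35 on the log2 scale (edgeR adjusted p = 0.0148). Cula0006592, labelled IAA10, had 2301, 2352 and 2914 counts in C1 UP against 102, 181 and 125 in C1 LB, and 482, 1073 and 209 in C11 UP against 63, 193 and 121 in C11 LB, and rose by 3.24 on the log2 scale (edgeR adjusted p = 0.0149). Cula0006592 was also the panel gene most like 3 of the SAUR50 homologs, with r of 0.85 for Cula0026368, 0.84 for Cula0014695 and 0.76 for Cula0007053.

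Among the panel genes lower in UP than in AB were the transporter gene Cula0009428 (ABCB13) and Cula0022022 (VAB). Cula0009428 had no count in C1 UP and 0, 2 and 0 in C11 UP, against 7, 66 and 2 in C1 AB and 31, 3 and 21 in C11 AB. It and Cula0022022 were also lower in UP than in LB, as was Cula0027856 (AAO, an aldehyde oxidase). The replicate numbers were taken to pair the UP and AB libraries, though what they stand for is not stated. With the number as a block 1 panel gene was called higher and 4 lower between UP and AB. The added genes were Cula0006592 (2.13, edgeR adjusted p = 0.0334) and Cula0027856 (-3.05, edgeR adjusted p = 0.0274). Cula0020853, labelled ARG7 after an auxin-induced SAUR gene of mung bean, was not called between tissues. Its log2 fold change was 0.17 ± 0.67 for UP against AB and 0.06 ± 0.67 for UP against LB, and like Cula0011066 it was highest in replicate 3 of C11, at 532, 1022 and 723 counts in AB, UP and LB.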

How the data were processed

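Poly(A) RNA was sequenced as paired reads from 18 libraries. The authors aligned them with Hisat2 to the C. lanceolata genome, counted them per gene and deposited these whole-number counts without normalization. How reads were counted, whether strand was used and how multi-mapped reads were handled is not given in the sources used here, so counts of similar SAUR copies are uncertain. What the replicate numbers stand for is not stated, and p-values measure the spread between these libraries.

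All 18 libraries were fitted in 6 groups of tissue and clone by edgeR's quasi-likelihood test (version 4.0.16, R 4.3.3) after filterByExpr at a minimum count of 10 and TMM scaling, with Benjamini-Hochberg adjustment over 27174 genes. Tissue contrasts were averaged over the clones, and each clone contrast used the 6 libraries of its tissue, after the study's design. SE is the log2 fold change divided by the root of the test's F. Intervals and floors cover counting error only. Correlations used log2(CPM + 1) with a pseudocount of 1, computed in Python (3.11.15), numpy (2.4.6) and pandas (2.3.3). Plots were made in matplotlib (3.10.9). Alternatives were a Wald test in DESeq2 1.42.0, RLE (median-of-ratios) factors, other filters, fits of fewer or more libraries, each library left out, pseudocounts of 0.1 and 5, and a block for the replicate number.

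Same-numbered UP and AB libraries deviated from their group means together, with r of 0.102 to 0.488 in C1 and 0.243 to 0.406 in C11. All were above the minimum of 0.1. Between the clones the same held for LB (0.257 to 0.398), but not for AB (-0.191 to 0.128) or UP (-0.151 to 0.095). Libraries of C1 and C11 came from different trees, so a shared number between the clones is no pair from the same tree. These numbers were taken to pair the UP and AB libraries, and LB between the clones, from the correlations alone. The main fit did not use the pairing. Tested on simulated counts, the edgeR fit found 72.5% (UP against AB) and 77% (UP against LB) of 200 genes given a log2 change of 3. Between the clones it found 24%, 29% and 26% in AB, UP and LB. The changed genes were drawn at random from all genes, whose median biological coefficient of variation was 0.459. Every homolog except Cula0014803 (0.456) lay at 0.753 or more, so these rates need not hold for the homologs.

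The members and lists were chosen with earlier results of these data known. The text names all 9 homologs, the 2 genes most like each and its nearest panel gene, and, from the other panel genes called between tissues, the 2 with the largest change in each direction, plus ARG7. VAB in UP against LB was added after its values were seen. Another panel gene is counted in the totals but not reported here. Sequences and gene lengths were not used here.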

Additional observations from a re-analysis of the deposited data

How the results depend on the processing

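The 2 calls of Cula0007053 and the call of Cula0014695 were made under every alternative other than leaving out a library, the fit without a filter included. The C1 UP libraries chose these genes, so this is no independent support. Of the 9 homologs, DESeq2 called 2 for UP against AB and 4 for UP against LB, adding Cula0026368 to both and Cula0029804 to the second. In simulated counts with no shared variation it recovered 86% of changed genes for UP against AB, with 37.5% of its calls false. Leaving out 1 library gave 0 to 2 calls for UP against AB, 1 to 3 for UP against LB and 0 for LB against AB. No share of all genes called is set beside these counts. The same-numbered UP and LB libraries correlated at -0.0339 to 0.423 in C1, not all above 0.1, and at 0.458 to 0.658 in C11. LB and AB gave -0.271 to 0.245 in C1 and 0.475 to 0.739 in C11. Neither was taken as paired. With the replicate block 3 homologs were called for UP against LB, which adds Cula0026368 (edgeR adjusted p = 0.0391, 0.00243 to 0.0757 over all alternatives other than leaving out a library), and the block changed no other tissue call of a homolog. Cula0026368 was also called for UP against LB in the fit of the 12 libraries, without replicate 3 of C11 in all tissues, and in 3 of the fits without 1 library. The block raised the genes called for UP against AB from 712 to 1175.

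Between the clones, where the choice of homologs fixes the counts in part, DESeq2 called 4, 7 and 4 homologs in AB, UP and LB, and the replicate block 0, 0 and 0. In UP the fit without a filter gave 0 calls. In LB, RLE factors gave 1, the CPM filter 1 and the fit of all 18 libraries 2. Leaving out a library gave 0 to 1 calls in AB, 0 to 5 in UP and 0 to 1 in LB. Apart from DESeq2, no share of all genes called is set beside these counts, and nothing is read from them.

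Signs turned only for differences that were not called. With the block, Cula0021634 came to -0.084 for UP against AB and Cula0020917 to -0.29 for LB against AB. Without replicate 3 of C11 in all tissues, chosen after seeing the data, Cula0020917 came to 0.10 for UP against AB and Cula0011066 to -0.34 for UP against LB. Over the fits without 1 library, UP against LB ran from -0.43 to 0.45 for Cula0001196, -1.25 to 1.66 for Cula0011066 and -0.68 to 0.61 for Cula0020917. UP against AB ran from -0.57 to 2.33 for Cula0011066, -0.44 to 0.14 for Cula0020917 and -0.22 to 0.84 for Cula0021634. LB against AB ran from -0.23 to 1.57 for Cula0011066, -0.16 to 0.47 for Cula0014803, -0.75 to 0.51 for Cula0020917 and -1.59 to 0.74 for Cula0026368. The cause was not tested. At the depth of these libraries the bud levels of Cula0014695 and Cula0007053 rest on 0 to 9 counts per library.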

Other observations

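Values for panel genes nearest to the SAUR homologs, over the 18 libraries and without a test, were as follows. Cula0023201, labelled TAR4 after enzymes that start auxin synthesis from tryptophan, followed Cula0011066 (r = 0.92) and was likewise highest in replicate 3 of C11, at 159 counts in AB, 242 in UP and 615 in LB against 4 to 17 counts in the C1 libraries. Cula0011081, labelled TAR3, followed the SAUR32 gene Cula0014803 (r = 0.86). Cula0018198, labelled DAO after an enzyme that oxidises auxin to an inactive form, followed the SAUR32 genes Cula0020917 (r = 0.92) and Cula0021634 (r = 0.82), with means of 1.72 to 2.49 CPM in the C11 tissues and at most 0.0731 CPM in the C1 tissues. Another gene labelled DAO, NewGene_15463, was nearest to Cula0001196 and Cula0029804 (r = 0.73 for both). It had 89, 105 and 94 counts in C1 UP, 0 to 47 in the C1 buds and 1 count over the 9 C11 libraries. The DAO and TAR genes named here were chosen by the study for differing between the clones, as the SAUR homologs were. Their likeness partly follows from the choice. The panel holds other DAO and TAR4 genes, which were not the nearest to any homolog.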
